A study of Homo sapiens with 8 samples.

Results

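The genes described here are 8 hormone genes of a liver cancer line that is not an endocrine tissue. They were chosen by symbol from the 58206 genes of the count table, and all 8 were found. CGA encodes the alpha subunit shared by the glycoprotein hormones, CGB3, CGB5, CGB7 and CGB8 encode beta subunits of chorionic gonadotropin, LHB encodes the beta subunit of luteinizing hormone, and CCK and NTS encode the precursors of the peptide hormones cholecystokinin and neurotensin. CGA and CCK were picked because their counts differed between the groups of this same table, and the others because they are their partners or, for NTS, another peptide hormone. The differences of the members between the groups are therefore given as descriptions without a test.

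RNA was sequenced from 8 samples of Alexander1, an established epithelial line from a human hepatocellular carcinoma. Per the labels, the parental cells (genotype "wt (Axin1 -)", 4 libraries) carry an Axin1, a scaffold of the complex that degrades beta-catenin, that lacks the region bound by the kinase GSK3, and canonical Wnt signalling is always on. The other 4 libraries (genotype "Axin1 +") are from a stable derivative given full-length Axin1 from a plasmid by VSVG retroviral transfer with clonal selection in hygromycin B, so that the effect of Axin1 and that of selecting clones cannot be told apart. The transfer and selection are written in the labels of all 8 samples. Both groups were grown in the same medium and no other agent is named.

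AXIN1 mRNA itself was not higher in the Axin1 + libraries. Its levels were 55.3, 52.8, 47.4 and 54.2 CPM (a count divided by the scaled total of its library, in the usual counts-per-million unit) in parental libraries 1 to 4. They were 47.6, 48.0, 48.2 and 37.7 CPM in Axin1 + libraries 1 to 4, a log2 fold change of -0.21 ± 0.12 (SE; adjusted p = 0.267, edgeR quasi-likelihood test with Benjamini-Hochberg adjustment). Counts per gene cannot separate the transferred from the resident AXIN1. The group is therefore called restored-labelled throughout.

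Total counts were between 11232951 and 15263761 in the parental libraries and between 12372436 and 26400782 in the restored-labelled libraries, so that 3 counts stood for 0.108 to 0.267 CPM. A pair of libraries stood apart. On the first principal component of log2 CPM, restored-labelled replicate 1 lay at 22.2, against 48.7 to 56.8 for the other restored-labelled libraries and -46.7 to -42.6 for the parental ones, and on the second component parental replicate 1 lay apart at 61.5, against -30.3 to 25.0 for the rest. Of 14289 genes tested, 2738 differed (19.2%), 1485 higher (10.4%) and 1253 lower (8.77%) in the restored-labelled group. Without both of those libraries 4623 genes differed, and the fewest with 1 library left out were 1394, without restored-labelled replicate 4. The labels do not say whether the 4 libraries of a group came from separate cultures, so the p-values measure the spread between these libraries, which may be technical.

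Glycoprotein hormones are heterodimers. The alpha subunit is common to chorionic gonadotropin, luteinizing hormone, follicle-stimulating hormone and thyrotropin, and each beta subunit gives its hormone its receptor specificity. The alpha gene is normally active in the placental trophoblast and in pituitary gonadotropes and thyrotropes, and free alpha or beta subunits are made by some tumours outside these tissues. Cholecystokinin is made by intestinal endocrine cells and neurons, and neurotensin by intestinal endocrine cells and neurons of the brain. Both are cut from larger precursors by prohormone convertases.

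CGA was a well-expressed gene of the parental cells and stood at a few CPM in the restored-labelled ones. The gene (ENSG00000135346) lies on the minus strand of chromosome 6 at 87085498 to 87095406 (GRCh38). Its counts were 1951, 3048, 1277 and 1826 in parental libraries 1 to 4, and 118, 15, 28 and 33 in restored-labelled libraries 1 to 4. In CPM these were 173.6, 206.4, 113.8 and 130.7 against 4.23, 1.24, 1.38 and 1.29. Every parental library exceeded every restored-labelled one. The means were 156 ± 41.9 and 2.03 ± 1.47 CPM (SD, n = 4 each). The log2 fold change was -6.19 ± 0.41 (SE), or 73.0-fold lower. Only 2 of the 14289 tested genes had a more negative fold change, which restates how the gene was picked. Restored-labelled replicate 1, one of the libraries that stood apart, held 3.25 times the mean of the other restored-labelled libraries. Without it the restored-labelled mean was 1.30 ± 0.0718 CPM (SD, n = 3) and the log2 fold change -6.89. In bulk RNA, fewer cells expressing a gene and less RNA per cell cannot be told apart.

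**Figure D1:**
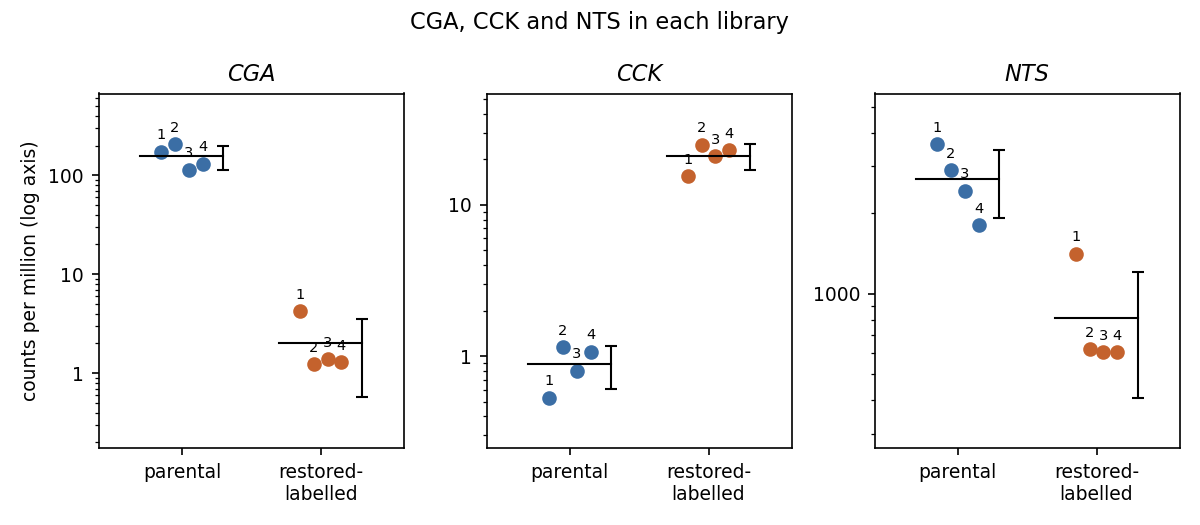
CGA, CCK and NTS in CPM on log axes (each panel with its own range), with a point per library numbered by replicate, a line at the mean of each group and a bar of 1 SD. The parental and restored-labelled points do not overlap for any of the 3 genes, and restored-labelled replicate 1 is the one nearest to the parental points in each panel.

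The sequence before the CGA start is shown because it holds the cyclic AMP response elements (CRE) for which this promoter is known, and the NTS window because it holds a variant of that element. The windows are from RefSeq (GRCh38.p14), run 5′ to 3′ along the gene from 250 bases before to 50 bases after the annotated start, and have motif matches in capitals.
CGA, chr6:87095057-87095356, minus strand (TGACGTCA and TATAAA in capitals): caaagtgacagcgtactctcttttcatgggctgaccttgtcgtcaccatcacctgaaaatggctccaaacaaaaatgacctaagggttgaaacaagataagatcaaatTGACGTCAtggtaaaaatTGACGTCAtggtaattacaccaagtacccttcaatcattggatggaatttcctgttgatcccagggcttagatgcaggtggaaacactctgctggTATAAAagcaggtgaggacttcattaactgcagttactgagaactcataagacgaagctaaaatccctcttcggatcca
NTS, chr12:85874045-85874344, plus strand (TGACATCA in capitals): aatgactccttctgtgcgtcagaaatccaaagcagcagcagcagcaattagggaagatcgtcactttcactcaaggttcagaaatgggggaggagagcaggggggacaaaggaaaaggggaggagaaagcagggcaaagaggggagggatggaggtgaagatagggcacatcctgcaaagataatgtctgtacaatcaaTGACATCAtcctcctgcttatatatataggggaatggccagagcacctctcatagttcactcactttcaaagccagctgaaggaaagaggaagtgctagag
The CGA window held the full 8-base palindrome TGACGTCA at positions -142 and -124, in a tandem repeat, and TATAAA at -29. The NTS window held TGACATCA, which differs from that palindrome by 1 base, at -51. AGATAA, the core letters bound by GATA factors, was found at -156 in CGA and at -72 in NTS. Both RefSeq starts of CCK had windows without either CRE form, and TATAAA was found there only at -213 and -211 of the proximal start, as overlapping matches on opposite strands. None of the windows of the 8 genes held the AP-1 letters TGANTCA or the TCF/LEF letters CTTTGAT, and the windows of CGB3, CGB5, CGB7, CGB8 and LHB held none of the 6 motifs. These letters were searched on both strands in 9 windows (8 of 8 symbols matched), with motifs chosen after the sequences were seen. Among 35116 RefSeq windows of the same length, 1.85% held TGACGTCA, 2.61% TGACATCA, 7.71% TGANTCA, 11.5% TATAAA, 10.3% AGATAA and 2.62% CTTTGAT. A match is a description of the letters and not evidence of a bound site.

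**Figure D2:**
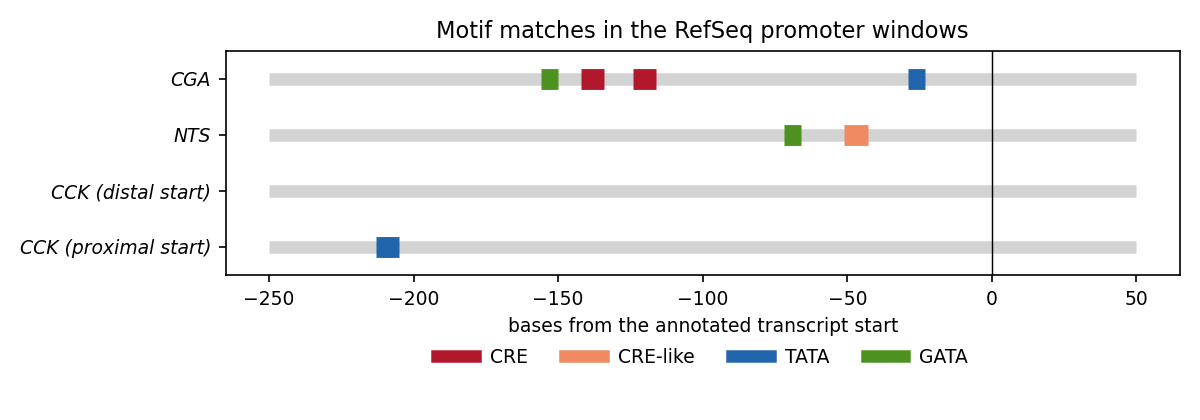
Positions of motif matches in the RefSeq windows of CGA, NTS and the 2 CCK starts, in bases from the annotated transcript start (vertical line), with each motif in its own colour. CGA has a pair of CRE matches at -142 and -124 with a GATA match before them, NTS has a CRE-like match at -51, and neither CCK window has a CRE or CRE-like match.

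No beta subunit gene approached the level of CGA in a parental library. Of the 4 listed chorionic gonadotropin genes, CGB3 and CGB5 had 0 counts in all 8 libraries. At 3 counts this limits the reads assigned to them to 0.108 to 0.267 CPM in a library. It does not limit reads that they share with other copies. CGB7 had 1, 1, 2 and 1 counts in parental libraries 1 to 4 and 5, 2, 4 and 1 in the restored-labelled ones. CGB8 had 2, 1, 1 and 2 parental counts, then 6, 0, 0 and 0 restored-labelled counts. The CGB7 groups overlapped, and the only restored-labelled library with CGB8 counts was replicate 1. LHB had 2, 2, 3 and 0 counts in the parental libraries and 2, 0, 0 and 0 in the restored-labelled ones. These genes did not pass the expression filter, and only CGA, CCK and NTS of the 8 members did. The CGB genes and LHB lie together on chromosome 19, at 49022869 to 49024333 (CGB3, minus strand), 49043884 to 49045311 (CGB5, plus), 49047638 to 49049106 (CGB8, minus), 49054275 to 49058860 (CGB7, minus) and 49015980 to 49017091 (LHB, minus).

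The CGB genes are near-identical copies, and this limits how their counts can be read. A stretch of coding bases 61 to 120 (counted from the A of the start codon, in exon 2) is shown to illustrate why, from GENCODE release 29 transcripts, with bases that differ from CGB3 in capitals.
CGB3, chr19:49023499-49023558, minus strand: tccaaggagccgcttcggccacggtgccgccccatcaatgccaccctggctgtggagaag
CGB5, chr19:49044622-49044681, plus strand: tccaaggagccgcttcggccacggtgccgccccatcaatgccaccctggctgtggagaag
CGB8, chr19:49048268-49048327, minus strand: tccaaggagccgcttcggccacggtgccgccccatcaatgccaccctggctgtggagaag
CGB7, chr19:49054904-49054963, minus strand: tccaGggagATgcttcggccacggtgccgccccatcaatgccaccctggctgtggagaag
LHB, chr19:49016610-49016669, minus strand: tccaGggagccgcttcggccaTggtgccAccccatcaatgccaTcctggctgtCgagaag
CGB3, CGB5 and CGB8 are the same over these bases, CGB7 differs from them at 3 and LHB at 5. Over whole transcripts, 79.6% of the 50-base windows of CGB3, 86.0% of those of CGB5, 82.8% of those of CGB8 and 45.2% of those of CGB7 occurred in another gene, against 0.645% for LHB and 0% for CGA, CCK and NTS. How reads that match several genes were counted is not given in the sources used here. If such reads were dropped, the CGB counts understate these genes, and the zeros of CGB3 and CGB5 are uncertain. LHB shares exon bases with RUVBL2 on the opposite strand, and CCK with AC018358.1, which had 0 counts in each parental library and between 1 and 3 in the restored-labelled ones. On their own strand, CGB3 shares exon bases with AC008687.1, and CGB7 with AC008687.7 and AC008687.8, so that reads there could have been given to those genes or to none. The use of strand in counting is not given in the sources used here.

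CGB2, another copy in the cluster that was not among the 8 members, was the beta-type gene with the most counts, 19, 5, 4 and 7 in the parental and 20, 8, 24 and 20 in the restored-labelled libraries. Of its 50-base windows, 84.9% occurred in another gene. Its means were 0.722 ± 0.650 and 0.835 ± 0.237 CPM (SD, n = 4 each), with a log2 fold change of 0.25 ± 0.51 (SE; adjusted p = 0.765, edgeR quasi-likelihood test with Benjamini-Hochberg adjustment). The other subunit genes were at or near 0 counts. FSHB, TSHB and GPHB5, the beta subunits of follicle-stimulating hormone, thyrotropin and thyrostimulin, had 0 counts in every library. GPHA2, the alpha subunit of thyrostimulin, had at most 1 count. CGB1 had 1 count in a single library, but 87.4% of its 50-base windows occurred in another gene. It also shares exon bases with AC008687.1 on its own strand, so that its count is as uncertain as those of the other copies. Summed over all 10 beta genes there were 24, 9, 10 and 10 counts in parental libraries 1 to 4, beside 1951, 3048, 1277 and 1826 for CGA. The corresponding restored-labelled sums were 33, 10, 29 and 21, beside 118, 15, 28 and 33 for CGA. Without CGB1 and CGB2 the beta sums were 5, 4, 6 and 3 in parental libraries 1 to 4. They were 13, 2, 4 and 1 in restored-labelled libraries 1 to 4.

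**Figure D3:**
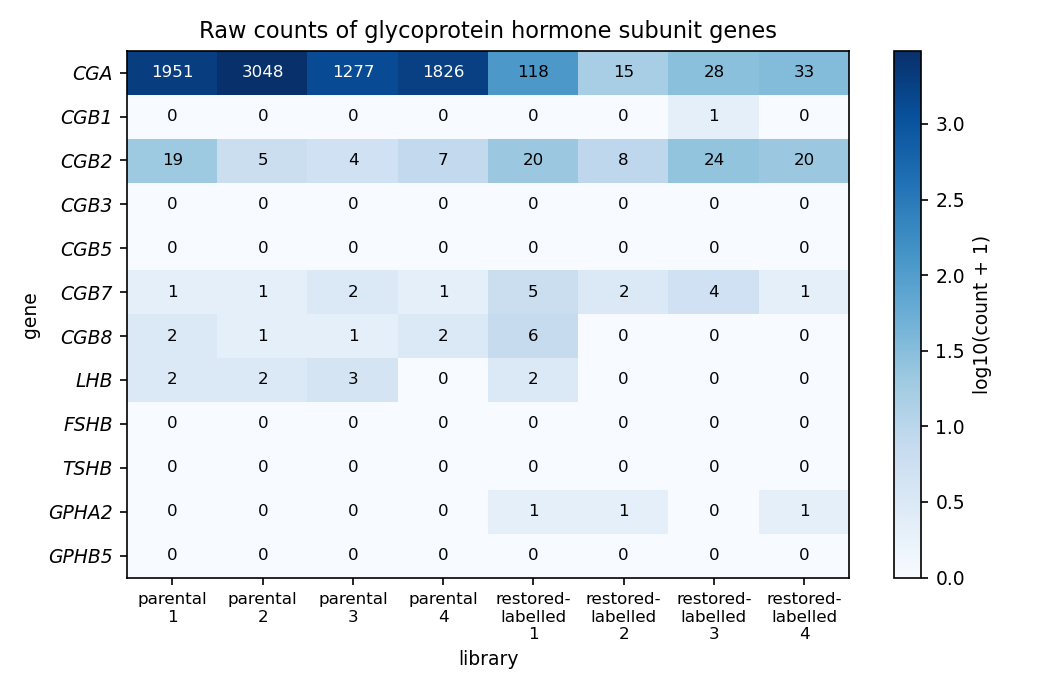
Raw counts of the 12 glycoprotein hormone subunit genes (rows) in the 8 libraries (columns), coloured by log10 of the count plus 1. CGA ranges from 1277 to 3048 in the parental columns and from 15 to 118 in the restored-labelled ones, and no other gene exceeds 24 counts.

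CCK had the opposite pattern to CGA. The gene (ENSG00000187094) lies on the minus strand of chromosome 3 at 42257825 to 42266207. It had 6, 17, 9 and 15 counts in parental libraries 1 to 4 and 432, 303, 426 and 588 in the restored-labelled ones. The levels were 0.534, 1.15, 0.802 and 1.07 CPM against 15.5, 25.0, 21.0 and 23.0 CPM. The groups did not overlap, and the lowest library of each group was its replicate 1. The means were 0.890 ± 0.281 and 21.1 ± 4.09 CPM (SD, n = 4 each). The log2 fold change was 4.53 ± 0.26 (SE), or 23.1-fold higher. Among all tested genes it ranked 53 from the most raised.

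NTS was abundant in both groups and lower in the restored-labelled one. The gene (ENSG00000133636) lies on the plus strand of chromosome 12 at 85874295 to 85882992. It had 3624, 2894, 2424 and 1801 CPM in parental libraries 1 to 4 and 1412, 620.6, 605.5 and 605.5 CPM in restored-labelled libraries 1 to 4. It took between 0.184% and 0.324% of all counts in a parental library and between 0.0608% and 0.149% in a restored-labelled one. The lowest parental library stood above the highest restored-labelled one, replicate 1. The means were 2686 ± 769 and 811 ± 401 CPM (SD, n = 4 each). The log2 fold change was -1.73 ± 0.31 (SE), or 3.31-fold lower. Restored-labelled replicate 1 held 2.31 times the mean of the other 3, which was 610.6 ± 8.73 CPM (SD, n = 3).

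All 3 members that passed the filter had groups that did not overlap, as did 23.9% of all tested genes. Because the contrast chose the genes, nothing is read from that count. Per kilobase of merged exon, a rough scale for comparing genes, NTS stood first in the parental cells at 1727 ± 495 CPM per kb, followed by CGA at 68.3 ± 18.4 (SD, n = 4). CGB2 at 0.840 ± 0.757 and CCK at 0.427 ± 0.135 CPM per kb came last and did not differ beyond their spread. In the restored-labelled cells the order of the same top genes was NTS at 521 ± 258, CCK at 10.1 ± 1.96, CGB2 at 0.972 ± 0.276 and CGA at 0.891 ± 0.642 CPM per kb (SD, n = 4). CGA and CGB2 did not differ there beyond their spread. Merged exons exceeded the transcripts whose windows were compared above by unequal factors. The lengths were 2284 against 1010 bases for CGA, 2085 against 747 for CCK and 859 against 627 for CGB2. The order of genes at like levels can therefore change with the length used, and the CGB2 level also depends on how shared reads were counted. Across the 8 libraries, which fall into the 2 groups, log2 CPM of CGA and NTS had a Pearson correlation of 0.948, CCK and CGA of -0.986, and CCK and NTS of -0.931, as descriptions that carry the group difference.

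The receptors of these hormones were nearly all silent. LHCGR, FSHR and TSHR, which bind the glycoprotein hormones, and CCKAR and CCKBR, which bind cholecystokinin, had 0 counts in all 8 libraries, and the neurotensin receptors NTSR1 and NTSR2 had at most 2 counts in a library. SORT1, which encodes the sorting receptor sortilin that also binds neurotensin, was the only 1 of 8 receptor genes to be tested. Its level was 77.5 ± 16.7 CPM in the parental and 60.0 ± 19.7 CPM in the restored-labelled libraries (SD, n = 4 each). The log2 fold change was -0.37 ± 0.23 (SE; adjusted p = 0.284, edgeR quasi-likelihood test with Benjamini-Hochberg adjustment), and the adjusted p was 0.0423 without restored-labelled replicate 1, which at 88.2 CPM exceeded the other restored-labelled libraries.

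Genes that cut and modify prohormones changed in both directions. Of 21 such genes, 19 were tested, 3 rose and 6 fell in the restored-labelled libraries (10.4% of all tested genes rose and 8.77% fell), with a median log2 fold change of -0.15 beside 0.00 over all tested genes. Without restored-labelled replicate 3 or 4, 5 of the list passed. PCSK1, the prohormone convertase of the regulated secretory pathway, was at 95.5, 73.2, 73.8 and 67.3 CPM in parental libraries 1 to 4 and at 15.8, 3.39, 3.40 and 4.33 CPM in the restored-labelled ones. Its groups did not overlap, and restored-labelled replicate 1 was again the highest of its group. PCSK1 fell by 3.49 ± 0.46 on the log2 scale (SE; adjusted p = 0.00076), and the log2 fold change was -4.37 without that library. CPE, the carboxypeptidase that trims the ends left by the convertases, fell from 206 ± 18.8 to 111 ± 7.74 CPM (SD, n = 4 each; log2 fold change -0.89 ± 0.12 SE, adjusted p = 0.00070). CHGB, a granin of dense core granules, fell from 16.8 ± 9.05 to 2.44 ± 1.37 CPM (SD, n = 4 each; log2 fold change -2.75 ± 0.51 SE, adjusted p = 0.0045), although parental replicate 1, at 4.27 CPM, lay below restored-labelled replicate 1 at 4.48 CPM. Without both libraries the log2 fold change of CHGB was -3.56. Other granin genes of the list did not share a direction. SCG2 fell (log2 fold change -1.15 ± 0.27 SE, adjusted p = 0.016). SCG3 rose at a low level, 0.443 CPM in the parental and 1.49 CPM in the restored-labelled mean (adjusted p = 0.012). CHGA and VGF had positive log2 fold changes of 0.96 and 0.81 and did not pass the test (adjusted p = 0.0625 and 0.0556). TPST1, a tyrosine sulfotransferase of the kind that acts on cholecystokinin, fell with a log2 fold change of -0.95 ± 0.27 (SE; adjusted p = 0.031), and did not pass when any library but replicate 1 of either group was left out (adjusted p = 0.0610 to 0.0890 over the other 6). QPCTL, a glutaminyl cyclase of the Golgi, rose from 36.9 ± 3.42 to 59.5 ± 9.62 CPM (SD, n = 4 each; log2 fold change 0.69 ± 0.14 SE, adjusted p = 0.0085), while its paralog QPCT fell with a log2 fold change of -2.50 ± 0.61 (SE; adjusted p = 0.018), which did not pass without restored-labelled replicate 3 (0.0527) or 4 (0.0610). Glutaminyl cyclases form the blocked first residue that neurotensin carries. CPD, a carboxypeptidase of the constitutive pathway, rose from 306 ± 72.9 to 518 ± 98.4 CPM (SD, n = 4 each; adjusted p = 0.0235), and did not pass without parental replicate 2 (0.0562), restored-labelled replicate 3 (0.0558) or restored-labelled replicate 4 (0.0779). The amidating enzyme gene PAM, needed for active cholecystokinin, was at 95.8 ± 11.8 and 107 ± 10.2 CPM and did not pass the test (adjusted p = 0.406). PCSK2, the other convertase of dense core granules, had 2 counts in 1 library and 0 in the others. The other convertase genes of the list did not pass the test. FURIN was at 859 ± 229 and 750 ± 88.0 CPM (SD, n = 4 each; adjusted p = 0.495). PCSK5 had means of 2.29 and 1.61 CPM (adjusted p = 0.569), PCSK6 of 55.5 and 50.1 CPM (0.514), and PCSK7 of 95.4 and 81.9 CPM (0.256). These adjusted p-values are from edgeR's quasi-likelihood test. TPST1, QPCT, PAM, PCSK2, PCSK5, PCSK6, PCSK7, SCG2, SCG3, CHGA and VGF were named after their values were seen.

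Enzymes that build the sugars of glycoprotein hormones were mostly expressed. Of 10 genes 9 were tested, 3 rose and 2 fell (10.4% and 8.77% of all tested genes), with a median log2 fold change of 0.39. FUT8, the core fucosyltransferase, rose from 8.66 ± 2.22 to 19.2 ± 3.13 CPM (SD, n = 4 each; log2 fold change 1.15 ± 0.21 SE, edgeR adjusted p = 0.0047). ST6GAL1, which adds terminal sialic acid, had 12.3, 16.4, 17.3 and 14.3 CPM in parental libraries 1 to 4 and 18.0, 53.8, 58.6 and 64.7 CPM in the restored-labelled ones. It rose by 1.69 ± 0.33 on the log2 scale (SE; edgeR adjusted p = 0.0061), with replicate 1 of the restored-labelled group lying just above the parental libraries. ST3GAL3, another sialyltransferase, fell from 9.29 ± 0.605 to 3.93 ± 1.19 CPM (SD, n = 4 each; edgeR adjusted p = 0.0056). CHST8, a sulfotransferase of pituitary hormone sugars, was at 0 to 1 counts in every library and was not tested. CHST9, another sulfotransferase of the list, was at 17.0 ± 4.29 and 13.2 ± 2.89 CPM (SD, n = 4 each) and did not pass (edgeR adjusted p = 0.285). CHST8 and CHST9 were named after their values were seen.

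**Figure D4:**
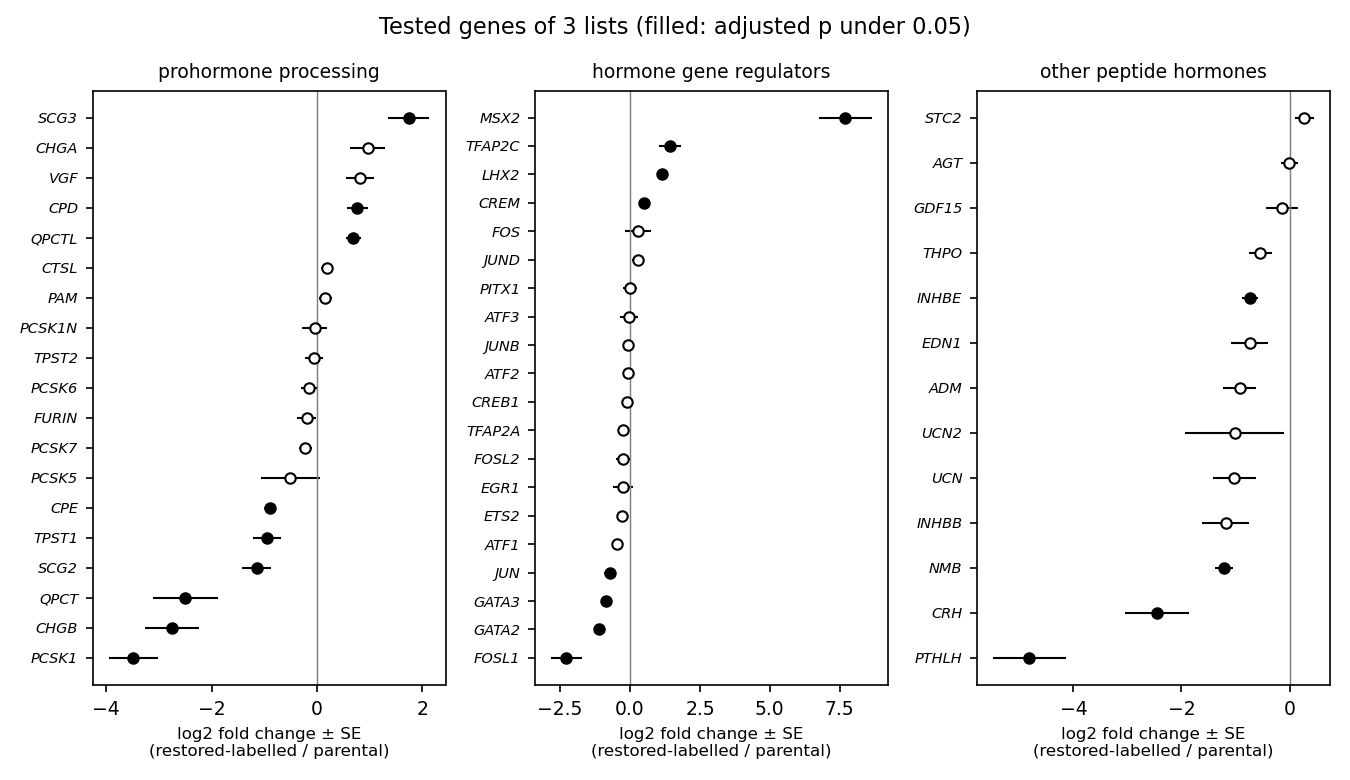
Log2 fold changes (restored-labelled over parental) of the tested genes of 3 lists, with bars of 1 SE and filled points for an adjusted p under 0.05. PCSK1 and PTHLH lie furthest to the left in their panels, at -3.49 and -4.81, and the value of MSX2 depends on the prior count because all its parental libraries held 0 counts.

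Of 25 transcription factor genes that are known from alpha subunit or chorionic gonadotropin promoters, or that bind CRE and AP-1 sites, 20 were tested, 4 rose and 4 fell (10.4% and 8.77% of all tested genes), with a median log2 fold change of -0.10. Of these, 5 passed without parental replicate 2 or 4 and 4 without restored-labelled replicate 4. GATA2, a GATA factor of trophoblast and pituitary cells, was at 16.8, 16.4, 15.9 and 19.3 CPM in parental libraries 1 to 4 and at 9.61, 8.01, 6.50 and 7.18 CPM in the restored-labelled ones. It fell by 1.13 ± 0.17 on the log2 scale (SE; adjusted p = 0.0015) with no overlap between the groups. Its paralog GATA3 fell from 25.8 ± 6.81 to 14.3 ± 1.91 CPM (SD, n = 4 each; adjusted p = 0.013). FOSL1, an AP-1 subunit named after its values were seen, fell from 69.4 ± 21.0 to 14.2 ± 14.0 CPM (SD, n = 4 each; log2 fold change -2.28 ± 0.55 SE, adjusted p = 0.017, or 0.0508 without restored-labelled replicate 4). LHX2, a LIM homeodomain factor, rose from 9.94 ± 1.69 to 21.8 ± 1.73 CPM (SD, n = 4 each; log2 fold change 1.13 ± 0.16 SE, adjusted p = 0.0011). MSX2, a homeodomain factor, had 0 counts in all parental libraries and 1.53 ± 0.575 CPM in the restored-labelled ones (SD, n = 4), at least 6.42-fold higher (adjusted p = 0.0015), with the bound set at 3 counts. CREB1, a factor that binds the CRE, was at 21.7 ± 2.41 and 19.9 ± 1.48 CPM and did not pass the test (adjusted p = 0.575). Among the related genes of the list, CREM rose from 18.4 ± 1.68 to 25.7 ± 1.37 CPM (SD, n = 4 each; adjusted p = 0.0257). ATF1, ATF2 and ATF3 did not pass (adjusted p = 0.0924, 0.744 and 0.937). CREB1, CREM, ATF1, ATF2 and ATF3 were named after their values were seen. PITX1, a pituitary homeodomain factor, had 15.2 CPM in both groups (adjusted p = 0.989). All are from the edgeR quasi-likelihood test, and no binding of any factor was measured.

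Markers of cells that normally make these hormones were mostly at or near 0 for trophoblast and pituitary, and in part for neuroendocrine cells. Of 27 trophoblast genes, 10 had no count, among them PSG1, CSH1 and HSD3B1, and 19 had at most 3 counts in every library. Their summed level was 3.44 to 17.4 CPM in the parental and 5.82 to 9.33 CPM in the restored-labelled libraries, and 0 of 3 tested genes passed the edgeR test, had an unadjusted p under 0.05 or passed the DESeq2 Wald test. Of 13 pituitary genes, 6 had no count, including POU1F1 and GNRHR, with summed levels of 17.8 to 20.8 and 11.8 to 24.0 CPM. LHX4 was the 1 of 3 tested pituitary genes that rose, from 0.337 ± 0.138 to 1.22 ± 0.336 CPM (SD, n = 4 each; edgeR adjusted p = 0.0105), and did not pass the expression filter without restored-labelled replicate 1, 3 or 4. Of 20 neuroendocrine genes, 7 were tested and 4 fell (CHGB, ENO2, UCHL1 and RFX6, where 8.77% of all tested genes fell), with summed levels of 336 to 527 and 277 to 302 CPM, and 2 fell without restored-labelled replicate 3. UCHL1 did not pass without parental replicate 2 (adjusted p = 0.0542), restored-labelled replicate 3 (0.0502) or restored-labelled replicate 4 (0.0587), nor RFX6 without parental replicate 3 (0.0546), parental replicate 4 (0.0518) or restored-labelled replicate 3 (0.0646). SYP, the synaptophysin gene, and CHGA, a granin gene named after its values were seen, went the other way without passing the test. Their log2 fold changes were 0.51 ± 0.17 and 0.96 ± 0.33 (SE, edgeR adjusted p = 0.0629 and 0.0625). Without replicate 1 of both groups, 2 neuroendocrine genes rose and 4 fell. The neuroendocrine markers NKX2-2, GCG and SST had no count in any library. Their part in the results above was not tested.

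Hepatocyte genes, by contrast, were all expressed. All 17 were tested, with summed levels of 29904 to 34526 CPM in the parental and 26348 to 33732 CPM in the restored-labelled libraries. Among them 4 rose and 3 fell, beside 10.4% and 8.77% of all tested genes. FGB, the fibrinogen beta chain, rose from 768 ± 102 to 3175 ± 612 CPM (SD, n = 4 each; edgeR adjusted p = 6.4e-05), and AHSG, fetuin-A, fell from 467 ± 181 to 50.2 ± 18.9 CPM (SD, n = 4 each; edgeR adjusted p = 0.00020).

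Other peptide hormone and growth factor genes were expressed in part, and those that changed fell. Of 59 genes, 33 had at most 3 counts in every library, 13 were tested, 0 rose and 4 fell, with a median log2 fold change of -0.92 (8.77% of all tested genes fell). At an unadjusted p under 0.05, 0 were higher and 8 lower, and by the DESeq2 Wald test 0 rose and 6 fell. CRH, corticotropin-releasing hormone, was at 613, 1639, 1112 and 1046 CPM in parental libraries 1 to 4 and at 525, 116, 87.4 and 75.4 CPM in the restored-labelled ones. The groups did not overlap, but parental replicate 1 and restored-labelled replicate 1 lay close together. CRH fell by 2.45 ± 0.60 on the log2 scale (SE; adjusted p = 0.0170). The call was lost without parental replicate 2 (adjusted p = 0.0501), without restored-labelled replicate 3 (0.0519) or without restored-labelled replicate 4 (0.0509), and the log2 fold change was -3.57 without restored-labelled replicate 1. PTHLH, parathyroid hormone-like hormone, fell from 6.21 ± 3.60 to 0.201 ± 0.144 CPM (SD, n = 4 each; log2 fold change -4.81 ± 0.67 SE, adjusted p = 0.0010), and its value was -5.43 without restored-labelled replicate 1. NMB, neuromedin B, fell from 27.7 ± 5.35 to 12.0 ± 1.01 CPM (SD, n = 4 each; adjusted p = 0.00099), and INHBE, an inhibin beta subunit of liver, from 88.4 ± 16.7 to 53.3 ± 4.25 CPM (SD, n = 4 each; adjusted p = 0.0084). AGT, angiotensinogen, did not pass the test, with 2377 and 2375 CPM, nor did GDF15, with 868 and 785 CPM. These are edgeR adjusted p-values. Without restored-labelled replicate 1, 7 genes of the list passed, and without both libraries that stood apart 8 of 12 tested genes fell and 0 rose.

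**Figure D5:**
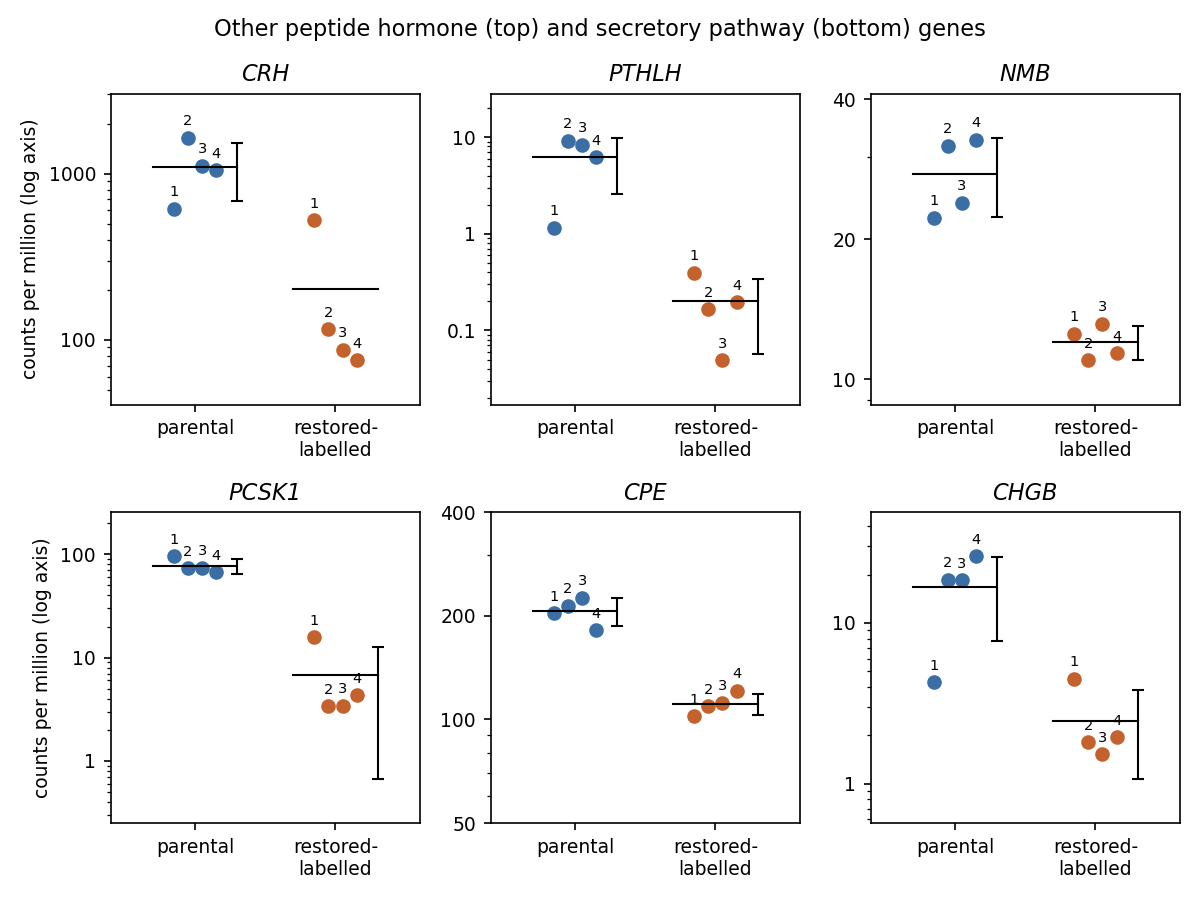
CPM on log axes (each panel with its own range) of 3 peptide hormone genes (CRH, PTHLH, NMB) and 3 secretory pathway genes (PCSK1, CPE, CHGB), with a point per library numbered by replicate, a line at the mean and a bar of 1 SD. The bar of CRH in the restored-labelled group is left out because it would reach below 0. The CHGB points of replicate 1 meet at 4.27 and 4.48 CPM, and the other 5 genes do not overlap between groups.

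The counts of neighbours given here stand beside 10.4% of all tested genes that rose and 8.77% that fell. Within 1 Mb of CGA, 7 neighbours were tested and 2 rose, SMIM8 (log2 fold change 0.78 ± 0.20 SE, adjusted p = 0.0204) and ORC3 (0.69 ± 0.18 SE, adjusted p = 0.0242), and 0 fell. SMIM8 did not pass the test without parental replicate 2 (adjusted p = 0.0637), without restored-labelled replicate 3 (0.0626) or without restored-labelled replicate 4 (0.0572). ORC3 did not pass without the same libraries (0.0736, 0.0695 and 0.0780) or without parental replicate 3 (0.0619). Of 9 tested neighbours of CCK, 0 passed the edgeR test, 1 had an unadjusted p under 0.05 and 0 passed the DESeq2 Wald test, which passed 1 neighbour that the edgeR filter had left out. With edgeR, 1 neighbour of CCK passed without parental replicate 4, without restored-labelled replicate 1 or without replicate 1 of both groups, and 2 passed with no expression filter. Beside NTS, 1 of 3 tested neighbours fell, the homeobox gene ALX1 (log2 fold change -1.05 ± 0.20 SE, adjusted p = 0.0053). RASSF9, whose gene lies 37.7 kb from NTS, had a log2 fold change of -0.83 ± 0.47 (SE) and did not pass (adjusted p = 0.242), but at -1.43 it passed without restored-labelled replicate 1 (adjusted p = 0.0328), the highest of its group at 7.53 CPM. RASSF9 was named after its values were seen. Around LHB, which stands for the CGB cluster, 72 neighbours were tested, of which 8 rose and 1 fell, beside the 19.2% of all tested genes that passed in either direction. The number that passed was 22 without parental replicate 1 and 5 without restored-labelled replicate 3. The adjusted p-values are from edgeR's quasi-likelihood test.

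The genes whose levels followed those of the members most closely were found by Pearson correlation of log2 CPM over the 8 libraries, among 13481 genes with a symbol and a mean of at least 1 CPM. They are given as a description, since likeness to a gene that separates the groups selects genes that separate them too. For CGA they were DBNDD1 (r = 0.992), DPH5 (0.991), CNTNAP4 (0.990), ABCC2 (0.989) and BMERB1 (0.988). CNTNAP4, a neurexin-like protein, was at 4.81 ± 0.669 CPM in the parental libraries and had 2 counts in restored-labelled replicate 1 and 0 in the others. ABCC2, a canalicular export pump of hepatocytes, was at 958 ± 20.8 and 615 ± 32.1 CPM (SD, n = 4 each). For CCK they included NNMT (0.997), IGFL2-AS1 (0.993), CALB1 (0.992) and ZNF141 (0.992). NNMT, nicotinamide N-methyltransferase, was at 11.6 ± 3.60 and 250.3 ± 62.2 CPM, and CALB1, the calcium-binding protein calbindin, at 0.0348 ± 0.0402 and 49.0 ± 6.81 CPM (SD, n = 4 each). For NTS they were BHMT2 (0.994), THSD4 (0.993), LIMK1 (0.992), DMKN (0.990) and NRBP1 (0.990). BHMT2, a methyltransferase of homocysteine metabolism, was at 189 ± 34.2 and 88.4 ± 23.1 CPM (SD, n = 4 each), with restored-labelled replicate 1 the highest of its group at 123 CPM.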

How the data were processed

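Libraries of mRNA from 4 parental and 4 restored-labelled samples were sequenced, whose titles give the group and replicate number. The table the authors deposited holds raw counts per gene, which are whole numbers with a different sum in each column. The submitters' processing notes list bcl2fastq, fastp 0.23.1, STAR 2.7.4 and GRCh38. The counting program, the annotation, the use of strand and the treatment of reads that match several genes are not given in the sources used here. Each of the 8 columns carries the name found in a sample's labels, leaving 0 columns of no sample. Of 58206 identifiers, 57943 were found in GENCODE release 29 (GRCh38), from which coordinates, exon lengths and overlaps come, and 57495 in a table of symbols.

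The 8 members, the gene lists and the tests were chosen with earlier results of these data known. The tests used edgeR 4.0.16 in R 4.3.3 (filterByExpr with minimum count 10 and minimum total 15, TMM scaling, glmQLFit and glmQLFTest of the groups without covariates). Two-sided p-values of the 14289 tested genes were adjusted together (Benjamini-Hochberg), and genes under 0.05 were called. The SE of a log2 fold change is its absolute value divided by the root of its F statistic. Log2 CPM used a prior count of 2. Limits set by 3 counts cover counting error only. Named genes were, from each list, at most 4 called genes with the smallest p-value and the 2 of highest mean CPM, the 5 genes most like CGA, CCK and NTS, at most 3 called neighbours of each member, and AXIN1. Of these, 1 gene is not reported here. Genes outside this rule are said to have been named after their values were seen, and names given only in counts of a list follow the list.

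Alternatives were total counts or DESeq2 size factors for scaling, the Wald test of DESeq2 1.42.0, a filter at a mean of 1 CPM or no filter, the replicate number as a block, leaving out each library, a neighbour window of 0.5 Mb and, chosen after seeing the data, leaving out replicate 1 of both groups. On simulated counts for 14082 genes with 196 changed, edgeR recovered 94.8% of the 4-fold and 55% of the 2-fold changes, and 3.31% of its 151 calls were false. The simulated libraries had none that stood apart, and far fewer genes changed than the 2738 called in the data. These rates may therefore not hold for the data.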

Additional observations from a re-analysis of the deposited data

Results flagged for a closer look

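A library far from the other 3 of its group, by Dixon's test at 95%, was found in 17 of 137 groups of 4 checked, where chance alone gives about 1 in 20 (6.85). Restored-labelled replicate 1 was the library in 13 of them, parental replicate 1 in 3 and restored-labelled replicate 4 in 1. The groups checked come from the same libraries and include genes chosen by likeness to CGA or NTS, so they are not independent. The number given for chance is therefore only rough, and the excess over it was not tested. Restored-labelled replicate 1 was the highest of its group for CGA at 4.23 CPM (the next library had 1.38), for NTS at 1412 CPM (620.6) and for CGB8 at 0.215 CPM (0 in the others). Among hormone and secretory genes it was also the highest for PCSK1 at 15.8 CPM (4.33), CHGB at 4.48 CPM (1.95) and CRH at 525 CPM (116). It was further the highest for the galactosyltransferase gene B4GALT1 at 205 CPM (169), for RASSF9 at 7.53 CPM (2.97), and for genes chosen by their likeness to CGA or NTS, DPH5 at 16.9 CPM (14.4), BHMT2 at 123 CPM (81.9), THSD4 at 4.73 CPM (1.68) and DMKN at 10.4 CPM (4.04). FGB was lowest there, at 2257 CPM (3452). Parental replicate 1 was the highest of its group for CGB2 at 1.69 CPM (0.501), for the keratin gene KRT7 at 12.4 CPM (3.12) and for the synaptophysin gene SYP at 27.8 CPM (19.3). AXIN1 was lowest in restored-labelled replicate 4, at 37.7 CPM (47.6). The cause was not tested.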

How the results depend on the processing

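Over the 15 alternatives to the fitted model, CGA, CCK and NTS kept their directions, with log2 fold changes of -6.89 to -6.00, 4.36 to 4.68 and -2.14 to -1.55. CGA moved by more than its pooled within-group SD of log2 CPM without restored-labelled replicate 1 (-6.89) and without replicate 1 of both groups (-6.84). With 1 library left out, CGA ranged from -6.89 to -6.00. Of 50 other named genes that passed the test, 40 passed under every alternative that could be fitted, and 3 of 17 that did not pass did so in some (SORT1, SYP and RASSF9). With replicate 1 of both groups left out, 4623 genes differed (2380 higher, 2243 lower), 1 receptor gene passed, and 8 other peptide hormone genes passed. Without an expression filter 8 other peptide hormone genes passed, and with a mean of at least 1 CPM 0 pituitary genes passed. With 1 library (or replicate 1 of both groups) left out, the genes that differed numbered 1394 to 4623, those higher 797 to 2380 and those lower 597 to 2243. The calls then ranged from 0 to 1 for receptors, 5 to 12 for prohormone processing, 4 to 12 for regulators, 0 to 1 for pituitary, 2 to 6 for neuroendocrine and 3 to 8 for other peptide hormone genes. The DESeq2 Wald test called 3551 genes. The cause of these differences was not tested.

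Signs changed for 6 genes that had not passed the test. With libraries left out, CGB2 ranged from -0.0031 (without parental replicate 2) to 1.06 and HLA-G from -0.086 (without parental replicate 4) to 0.44. KRT7 was at 0.010 with total counts and 0.22 with the replicate block, and ranged from -0.40 to 0.83 (without parental replicate 1). PITX1 was at 0.056 with total counts and 0.014 with no filter, and ranged from -0.16 to 0.18 (without restored-labelled replicate 1). AGT was at 0.081 with total counts and 0.026 with no filter, and ranged from -0.066 to 0.093 (without restored-labelled replicate 4). GDF15 ranged from -0.35 to 0.28 (without parental replicate 1).

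The labels number the replicates alike in both groups, but same-numbered libraries had correlations of -0.063, 0.007, -0.032 and 0.227 of their deviations, so the numbers were not taken as pairs. With the replicate block 2033 genes differed, and the log2 fold changes of CGA, CCK and NTS were -6.32, 4.57 and -1.79. For genes at or near 0 counts, depth limits what could be seen, since 3 counts stood for 0.108 to 0.267 CPM.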
